A study of Mus musculus with 24 samples.

Results

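The unfolded protein response and the integrated stress response are 2 linked programs that adjust a cell to misfolded proteins and to a shortage of amino acids. Transcripts of 36 genes of these programs were followed in hematopoietic stem cells (HSCs) sorted from mice, the cells from which all blood lineages descend. The genes were taken from a list of textbook members, by symbol, out of 55487 gene IDs in the count tables, and all 36 were found. The list was made with earlier results of these data known. Shares of members set beside shares of all genes are therefore descriptions and not tests of the set. They form an endoplasmic reticulum (ER) branch of 22 genes, the stress sensors and the chaperones, folding enzymes and degradation factors of the Xbp1 and Atf6 type, and an integrated stress response (ISR) branch of 14 genes of the Atf4 type.

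The data are 24 bulk Smart-seq2 libraries in 3 experiments, each with its own control. HSCs labelled PUS10-OE, which overexpress the pseudouridine synthase PUS10, were set against cells labelled Vector (n = 3 each). HSCs labelled miR139-KD, a knockdown of the microRNA miR-139, were set against a non-target control, NTC (n = 6 each). Libraries labelled Pus10-KO were set against Pus10-WT (n = 3 each). The labels give no age, strain, allele, promoter, delivery or treatment for any group. Nor do they tie libraries to animals, so each p-value reflects library-to-library spread, part of which may be technical.

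In the ER arm of the response, the sensors IRE1 (encoded by Ern1), ATF6 and PERK (encoded by Eif2ak3) detect unfolded protein in the ER lumen. IRE1 splices Xbp1 mRNA so that it encodes an active transcription factor, and XBP1 and cleaved ATF6 raise the transcription of chaperones, disulfide isomerases and degradation factors. PERK and related kinases phosphorylate the translation factor eIF2α, which lowers overall protein synthesis and favours translation of Atf4 mRNA. ATF4 protein then raises genes for amino acid synthesis and uptake and for feedback, among them Ddit3 (CHOP). HSCs are known for a low rate of protein synthesis, and plasma cells, which secrete antibody, for a high level of Xbp1 and of the ER folding machinery. Gene counts measure neither the splicing of Xbp1 nor the translation of Atf4.

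The branches also differ in short promoter sequences. These were not looked up when the genes were listed. The list holds textbook targets of XBP1, ATF6 and ATF4, and such targets may be known partly through these sequences. The shares below describe the list and may not be independent of its choice. Each promoter window held 250 bases before to 50 bases after the transcription start (RefSeq, build GRCm38.p6), and 19 of 22 ER members and 13 of 14 ISR members had one. The ER stress element (ERSE, searched on both strands as CCAAT and CCACG with 9 bases of any kind between them) was present in 8 ER members and 0 ISR members, against 0.137% of the 27025 genes with a window. Its shorter form (ERSE-II, ATTGG and CCACG with 1 base of any kind between them, both strands) was in 2 ER members, Herpud1 and Dnajb11, against 0.0444% of all genes. The C/EBP-ATF response element (CARE, TGATGNAAN on both strands) was in 5 ISR members, Trib3, Chac1, Asns, Slc7a11 and Vldlr, and in the ER member Herpud1, against 4.50% of all genes. A stricter CARE core (TTGCATCA, whose reverse complement overlaps the first CARE pattern) was in Chac1, Slc7a11, Vldlr and Herpud1, against 1.03% of all genes, and the unfolded protein response element (UPRE, TGACGTGG) was in 0 members, against 0.714%. The windows below are examples of ERSE, ERSE-II and CARE matches that lie before the RefSeq transcription start. Herpud1 is shown because it carried a motif of each branch. In Hspa5, Asns and Vldlr, the GENCODE annotation used for gene positions starts the gene further upstream. The stretch around these matches overlaps a GENCODE exon of the gene, so 5 bases on each side are printed. The matches of Dnajb11 (bases 7 to 17) and Trib3 (bases 13 to 21) lie after the start and are not printed. The windows are written 5′ to 3′ along the strand of the gene, with the matched letters in capitals. A match is a description of the letters and not evidence of binding.
Hspa5 ERSE, chr2:34772020-34772048, plus strand: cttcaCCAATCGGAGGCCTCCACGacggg
Creld2 ERSE (reverse orientation), chr15:88819500-88819558, plus strand: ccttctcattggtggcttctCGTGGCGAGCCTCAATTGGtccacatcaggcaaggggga
Calr ERSE (reverse orientation), chr8:84847055-84847113, minus strand: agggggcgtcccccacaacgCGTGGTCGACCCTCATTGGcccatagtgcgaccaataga
Canx ERSE, chr11:50325780-50325838, minus strand: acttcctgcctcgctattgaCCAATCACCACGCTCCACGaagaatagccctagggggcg
Herpud1 ERSE-II, chr8:94386357-94386407, plus strand: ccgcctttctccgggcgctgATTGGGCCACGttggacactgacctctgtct
Herpud1 CARE (reverse orientation), chr8:94386296-94386344, plus strand: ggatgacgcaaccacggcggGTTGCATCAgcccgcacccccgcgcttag
Chac1 CARE (reverse orientation), chr2:119351028-119351076, plus strand: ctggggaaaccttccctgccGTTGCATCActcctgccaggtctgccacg
Asns CARE, chr6:7693219-7693237, minus strand: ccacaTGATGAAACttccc
Vldlr CARE (reverse orientation), chr19:27216814-27216832, plus strand: caataGTTGCATCAgcgct

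**Figure D1:**
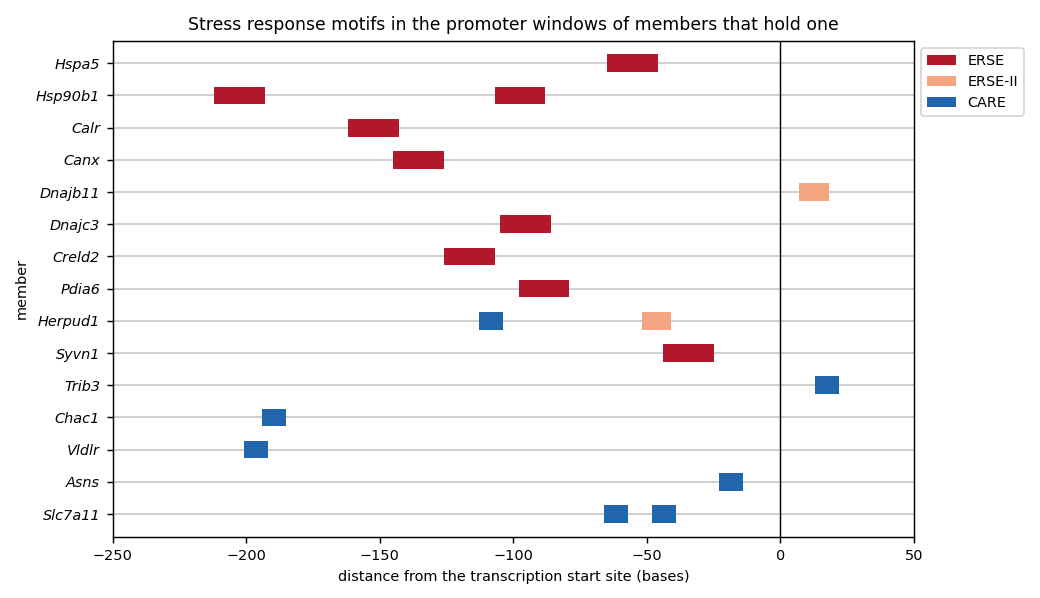
Positions of ERSE, ERSE-II and CARE matches in the promoter windows of the members that hold one, in bases from the RefSeq transcription start site. Genes stand in rows, with ER members above ISR members. ERSE matches stand in 8 ER members, and CARE matches in 5 ISR members and in Herpud1.

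Libraries held between 9873587 and 47278996 gene counts, the deepest being those of PUS10-OE and Vector. All 12 HSC markers on a list of genes that includes Procr, Slamf1, Mecom and Hlf were detected at a level that could be tested in each experiment. Levels are given as CPM, read counts scaled by TMM to a common library size within each experiment, and levels in different experiments are not compared by a test. Pus10 averaged 257 ± 23.7 CPM in PUS10-OE and 75.9 ± 20.2 CPM in Vector (SD, n = 3 each; log2 fold change 1.76, SE 0.197, edgeR adjusted p = 0.278). It was not lower in the libraries labelled Pus10-KO, at 35.2 ± 1.31 CPM against 28.4 ± 7.68 CPM in Pus10-WT (log2 fold change 0.31, edgeR adjusted p = 0.951), so gene counts do not check that label. Libraries stood apart in transcripts of plasma cells and, in the knockdown and Pus10-KO comparisons, of other blood lineages. The summed level of 22 plasma cell markers was 217 to 263 CPM in Pus10-KO and 27092 to 29710 CPM in Pus10-WT. In the knockdown experiment it reached 15137 CPM in miR139-KD replicate 5, 5427 CPM in miR139-KD replicate 6 and 16494 CPM in NTC replicate 5, while the other miR139-KD libraries held 208 to 1204 CPM and the other NTC libraries 603 to 994 CPM. In the same experiment, granulocyte and monocyte markers summed to 1853 to 20377 CPM in miR139-KD and 1851 to 21919 CPM in NTC. Erythroid markers summed to 3090 to 12406 CPM in miR139-KD and 2121 to 14850 CPM in NTC. No marker of these lists was called there, and their part in the results was not tested. In the Pus10-KO comparison, granulocyte and monocyte markers summed to 1305 to 4551 CPM in Pus10-KO and 1091 to 1591 CPM in Pus10-WT. Erythroid markers summed to 3410 to 8067 CPM in Pus10-KO, where Hba-a1 averaged 1388 CPM, and to 3283 to 5330 CPM in Pus10-WT. The ranges overlapped, 0 markers of these 2 lists were called, and their part there was not tested either. In bulk libraries, fewer cells of a type and less RNA per cell cannot be told apart.

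Most members were detected in these libraries at moderate to high levels, and the member with the highest mean differed between groups. Per kilobase of exon, Pdia3, a disulfide isomerase of glycoprotein folding, was the highest member in PUS10-OE (373 ± 43.5 CPM per kb), Vector (388 ± 15.1), Pus10-KO (188) and Pus10-WT (239). Calr, the lectin chaperone calreticulin, led in miR139-KD (181 ± 21.4 CPM per kb), and Phgdh, the first enzyme of serine synthesis, led in NTC (186 ± 31.5 CPM per kb). In NTC this order lies within the spread, with Pdia3 at 160 ± 17.2 and Calr at 159 ± 30.0 CPM per kb (SD, n = 6). Slc7a11, the cystine transporter, was the lowest member in every group, at 0.00197 to 0.136 CPM per kb. Among the sensors, Ern1, Atf6 and Eif2ak3 stayed between 1.10 and 4.02 CPM per kb in every group, far below Xbp1, which ranged between 38.2 CPM per kb in NTC and 167 CPM per kb in Pus10-WT.

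**Figure D2:**
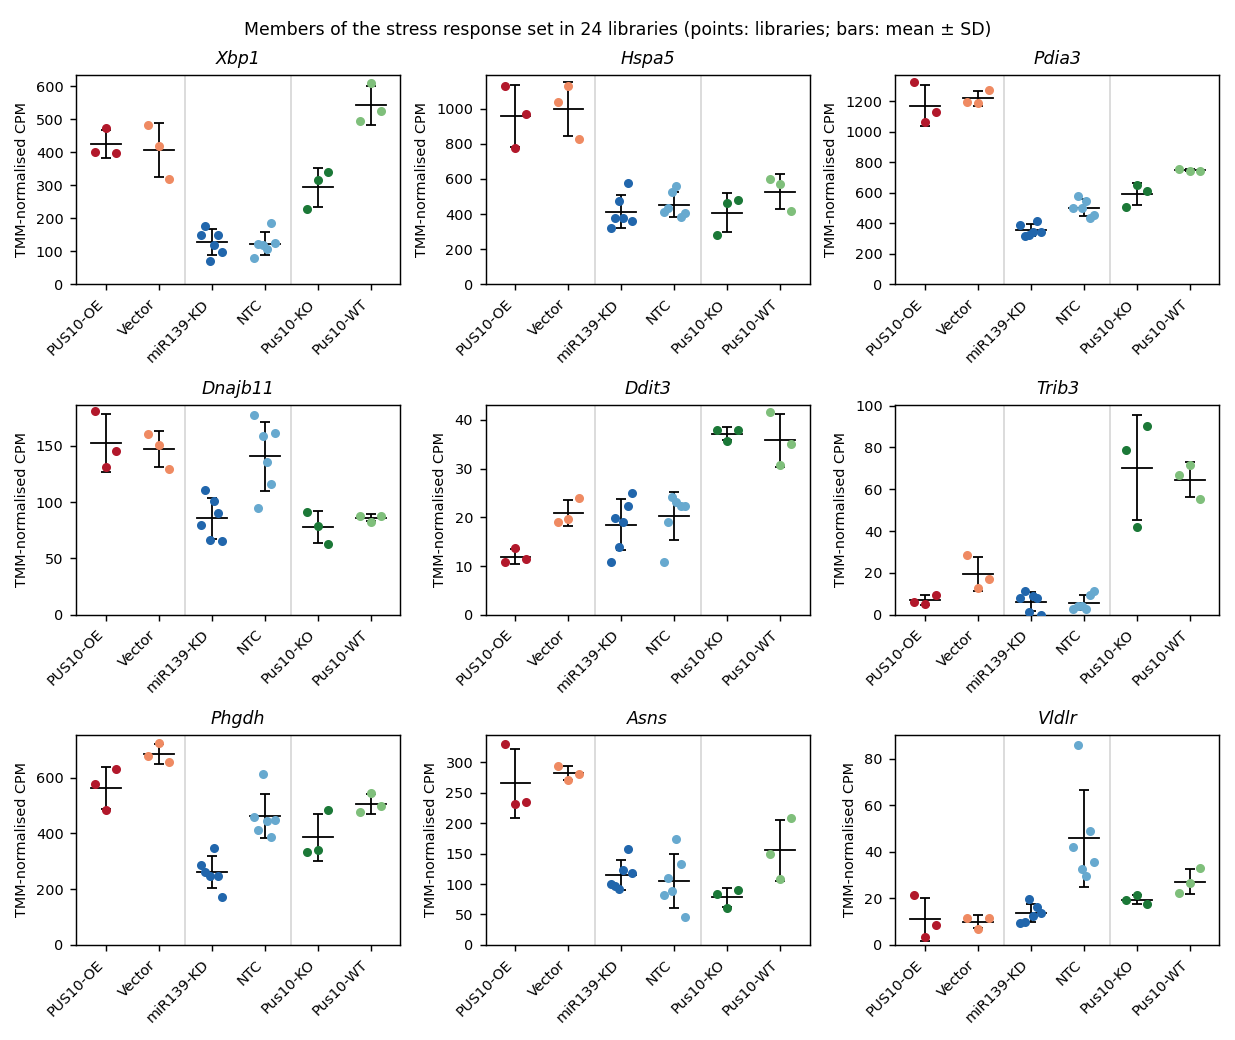
TMM-normalised CPM (vertical axis, linear from 0) of 9 members in each library, with points for libraries and black bars for the mean ± SD of each group. Values are scaled within each of the 3 experiments. Ddit3, Trib3 and Phgdh are lower in all PUS10-OE than in all Vector libraries. Pdia3, Phgdh and Vldlr are lower in all miR139-KD than in all NTC libraries. Xbp1, Pdia3, Asns and Vldlr are lower in all Pus10-KO than in all Pus10-WT libraries.

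On overexpression of PUS10, no member passed the test. Of 36 members tested, 0 were called by edgeR at an adjusted p under 0.05, against 0% of 14834 genes, so the comparison as a whole gave no call. At an unadjusted p under 0.05, 7 members stood lower and 0 higher (19.4% of members lower), against 3.72% of all genes lower and 4.47% higher. Of these 7, 5 were ISR members and 2 were ER members. The libraries of the groups did not overlap for 11 members, all lower in PUS10-OE, 7 from the ISR branch and 4 from the ER branch, against 6.75% of all genes lower and 8.31% higher. In all, 15 of 36 members had a log2 fold change above 0, against 50.7% of all genes. The median log2 fold change was -0.26 over the 14 ISR members, of which 10 were negative, and -0.02 over the 22 ER members, of which 11 were negative, beside 0.01 over all genes. Without Vector replicate 1 the ISR median was -0.15, and without PUS10-OE replicate 2 it was -0.17. No test was made of the difference between the branches. By DESeq2, 3 members were called, Ddit3, Trib3 and Ppp1r15a, among 177 genes, and by limma-voom 0 members.

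The ISR members with the lowest p were Ddit3, Trib3, Ppp1r15a and Cebpg. Ddit3, the transcription factor CHOP that follows prolonged stress (chr10:127290774-127296288, plus strand, GRCm38), measured 10.7, 13.6 and 11.4 CPM in PUS10-OE, against 19.1, 19.7 and 24 CPM in Vector. Every PUS10-OE library was below every Vector library (log2 fold change -0.81, SE 0.204, edgeR adjusted p = 0.364; DESeq2 adjusted p = 0.0468). Trib3, a pseudokinase induced by ATF4 and CHOP that restrains ATF4, measured 6.22, 5.07 and 9.58 CPM in PUS10-OE, against 28.7, 12.8 and 17.2 CPM in Vector. Its groups did not overlap (log2 fold change -1.49, SE 0.373, edgeR adjusted p = 0.364; DESeq2 adjusted p = 0.0143). Ppp1r15a, which encodes GADD34 and directs the removal of phosphate from eIF2α, measured 11.3, 16.8 and 19.1 CPM in PUS10-OE, against 22.3, 37.1 and 41.3 CPM in Vector. Again all PUS10-OE libraries were the lower ones (log2 fold change -1.09, SE 0.291, edgeR adjusted p = 0.393; DESeq2 adjusted p = 0.0237). Chac1, which breaks down glutathione, was a weakly detected gene with 2.82, 4.75 and 0.0975 CPM in PUS10-OE, against 9.37, 13.5 and 6.17 CPM in Vector (log2 fold change -1.92, SE 0.954, edgeR adjusted p = 0.693). Sesn2, an inhibitor of mTORC1 signalling, had a log2 fold change of -0.04 (SE 0.394).

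The other ISR members include Atf4, its partner Cebpg and the genes of amino acid metabolism. Atf4 itself measured 125, 176 and 129 CPM in PUS10-OE, against 129, 150 and 122 CPM in Vector, and its groups overlapped (log2 fold change 0.10, 95% interval -0.26 to 0.46). Cebpg, a dimer partner of ATF4, measured 39.3, 42.4 and 40.1 CPM in PUS10-OE, against 45.6, 59.0 and 56.2 CPM in Vector (log2 fold change -0.40, SE 0.142, edgeR adjusted p = 0.508). Phgdh measured 577, 482 and 632 CPM in PUS10-OE, against 678, 725 and 654 CPM in Vector, and its groups did not overlap (log2 fold change -0.28, SE 0.111, edgeR adjusted p = 0.567). The amino acid enzymes Asns and Psat1 had log2 fold changes of -0.09 and 0.15, with 95% intervals of -0.42 to 0.25 and -0.07 to 0.36. Slc3a2, the heavy chain shared by amino acid exchangers, was lower in all 3 PUS10-OE libraries (log2 fold change -0.24, SE 0.102), while Slc7a5, its leucine-transporting partner, had a value of 0.22 (SE 0.204). Vldlr, the very low density lipoprotein receptor, varied widely at 21.3, 3.34 and 8.67 CPM in PUS10-OE, against 11.6, 6.84 and 11.6 CPM in Vector (log2 fold change 0.15, SE 0.594). For Slc7a11, no library passed 3.10 CPM.

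In the ER branch, the hub genes overlapped between PUS10-OE and Vector. Xbp1 measured 403, 475 and 399 CPM in PUS10-OE, against 484, 420 and 319 CPM in Vector (log2 fold change 0.06, 95% interval -0.30 to 0.42). Hspa5, the chaperone BiP that holds the sensors inactive, measured 1129, 775 and 968 CPM in PUS10-OE, against 1037, 1126 and 827 CPM in Vector (log2 fold change -0.06, 95% interval -0.43 to 0.31). Neither gene separated the groups. Pdia3 measured 1323, 1061 and 1128 CPM in PUS10-OE, against 1196, 1186 and 1273 CPM in Vector (log2 fold change -0.06, SE 0.0969). The DnaJ cochaperone Dnajb11 measured 181, 131 and 146 CPM in PUS10-OE, against 160, 151 and 130 CPM in Vector (log2 fold change 0.05, SE 0.144). The ER members with the lowest p were all below their controls without passing the test. Dnajb9, a cochaperone of BiP known as ERdj4, measured 41.8, 48.4 and 35.8 CPM in PUS10-OE, against 51.1, 54.9 and 62.2 CPM in Vector (log2 fold change -0.42, SE 0.156, edgeR adjusted p = 0.540). Pdia4, a disulfide isomerase, measured 151, 115 and 166 CPM in PUS10-OE, against 173, 183 and 192 CPM in Vector (log2 fold change -0.35, SE 0.142, edgeR adjusted p = 0.592). Ern1, the sensor IRE1, measured 9.72, 6.21 and 13.3 CPM in PUS10-OE, against 14.5, 15.1 and 14.3 CPM in Vector (log2 fold change -0.59, SE 0.295). Herpud1, a scaffold of ER-associated degradation, measured 291, 208 and 277 CPM in PUS10-OE, against 319, 315 and 292 CPM in Vector (log2 fold change -0.26, SE 0.132). In each of these 4 genes every PUS10-OE library was below every Vector library. The other 14 ER members had log2 fold changes between -0.14 and 0.16.

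Among genes of the same pathways outside the 36, 0 of 51 further ER genes and 0 of 35 further ISR genes tested were called. The lowest p-values belonged to Sec61g and Ssr4, subunits of the translocation machinery, with log2 fold changes of 0.29 and 0.30 (edgeR adjusted p = 0.459 for each), and to Sars and Gpt2, a seryl-tRNA synthetase and an alanine aminotransferase, at -0.31 and -0.90 (edgeR adjusted p = 0.519 and 0.556). The median over the further ISR genes was -0.18 and over the further ER genes -0.02. Other transcripts separated the groups as well. The summed level of 15 immediate early genes, which a cell induces within minutes of handling or stimulation, was 312, 260 and 301 CPM in PUS10-OE, against 464, 468 and 425 CPM in Vector, with Fosb, Egr2, Atf3 and Klf2 at 0 in all PUS10-OE libraries. The sum of 6 multipotent progenitor markers was 887 to 902 CPM in PUS10-OE, against 1240 to 1280 CPM in Vector. Summed markers of 3 other cell types were higher in PUS10-OE with no overlap. They were 435 to 629 CPM in PUS10-OE against 296 to 345 CPM in Vector for megakaryocytes, 1957 to 2308 CPM against 1610 to 1941 CPM for erythroid cells, and 166 to 188 CPM against 153 to 164 CPM for plasmacytoid dendritic cells, whose marker Siglech was at 0 in both groups. In these 5 lists, 0 markers were called by edgeR, and their part in the low values was not tested.

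**Figure D3:**
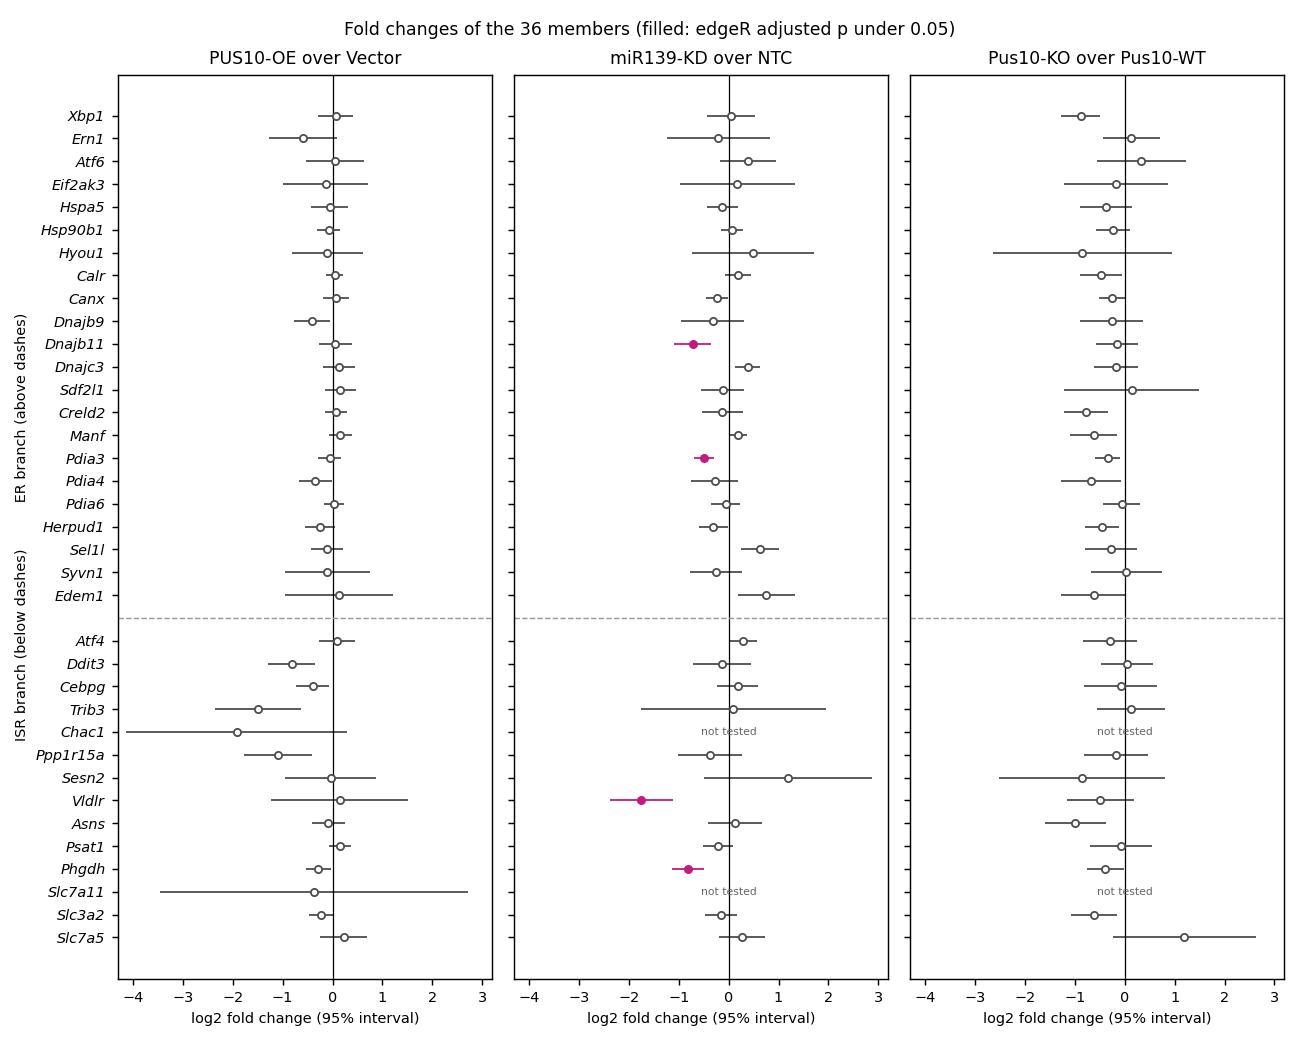
Log2 fold changes (horizontal axes) with 95% intervals of the 36 members in the 3 comparisons, with the ER branch above and the ISR branch below the dashed line and calls at an edgeR adjusted p under 0.05 filled. The 4 filled points, Dnajb11, Pdia3, Vldlr and Phgdh, all lie below 0 in the miR139-KD panel; 2 members in each of the miR139-KD and Pus10-KO panels were not tested.

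On knockdown of miR-139, 4 members fell, in both branches, and 0 rose. Of 34 members tested, edgeR called Vldlr, Phgdh, Pdia3 and Dnajb11 (11.8% of members), against 2.72% of 13295 genes called in either direction, 1.31% lower and 1.41% higher. At an unadjusted p under 0.05, 5 members stood higher and 6 lower, against 8.04% of all genes higher and 8% lower. The groups did not overlap for 3 members, all lower in miR139-KD, against 1.78% of all genes lower and 1.65% higher. The branches had no common direction, and 16 of 34 members tested had a log2 fold change above 0, against 51.4% of all genes. The median log2 fold change was -0.09 over the 22 ER members, of which 12 were negative, and -0.02 over the 12 ISR members tested, of which 6 were negative, beside 0.02 over all genes. Chac1 and Slc7a11 were too low to be tested, with a median of 0 CPM and of 0.411 CPM in miR139-KD and of 0 CPM and 0.152 CPM in NTC.

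The ISR members that fell were a receptor and an enzyme, not the transcription factors. Vldlr (chr19:27216484-27254231, plus strand), known as an ATF4 target in mouse cells, had a lowest, median and highest level of 9.59, 13.1 and 19.6 CPM in miR139-KD, against 29.4, 39.0 and 86.1 CPM in NTC. All miR139-KD libraries lay below all NTC libraries, at 13.6 ± 3.82 CPM against 45.9 ± 20.9 CPM (SD, n = 6 each; log2 fold change -1.75, SE 0.294, edgeR adjusted p = 0.00513). Phgdh (chr3:98313170-98339990, minus strand) had 171, 255 and 349 CPM in miR139-KD, against 388, 447 and 612 CPM in NTC. Its groups did not overlap either, at 261 ± 57.9 CPM against 461 ± 78.3 CPM (SD, n = 6 each; log2 fold change -0.82, SE 0.15, edgeR adjusted p = 0.00909). The enzymes beside Phgdh did not pass the test: Psat1, the next step of serine synthesis, had a log2 fold change of -0.21 (95% interval -0.50 to 0.09) and Asns, asparagine synthetase, one of 0.12 (95% interval -0.42 to 0.66). Atf4 had 141, 181 and 199 CPM in miR139-KD, against 111, 144 and 184 CPM in NTC, with overlapping groups (log2 fold change 0.28, SE 0.131, edgeR adjusted p = 0.308). Ddit3 had 10.9, 19.4 and 25.0 CPM in miR139-KD, against 10.8, 22.3 and 24.2 CPM in NTC (log2 fold change -0.13, 95% interval -0.72 to 0.45). Sesn2 was scattered, with 0.0999, 8.50 and 14.3 CPM in miR139-KD, against 0.995, 2.80 and 7.35 CPM in NTC (log2 fold change 1.18, SE 0.787, edgeR adjusted p = 0.516). The other 5 ISR members tested had log2 fold changes between -0.38 and 0.27.

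In the ER branch, a disulfide isomerase and a cochaperone fell, and no member rose. Pdia3 (chr2:121413775-121438687, plus strand) had 315, 346 and 418 CPM in miR139-KD, against 437, 500 and 580 CPM in NTC. Its groups did not overlap, at 357 ± 39.4 CPM against 503 ± 54.0 CPM (SD, n = 6 each; log2 fold change -0.50, SE 0.0943, edgeR adjusted p = 0.0116). Dnajb11 (chr16:22857845-22879634, plus strand), an ER cochaperone of BiP, had 65.7, 84.9 and 111 CPM in miR139-KD, against 95.3, 147 and 177 CPM in NTC. Its groups overlapped and its call was the weakest of the 4 (log2 fold change -0.72, SE 0.175, edgeR adjusted p = 0.0418). It was lost when any 1 of 9 libraries was left out, miR139-KD replicate 1, 3, 4, 5 or 6 or NTC replicate 1, 3, 4 or 6, with edgeR adjusted p between 0.0506 and 0.0963. Sel1l, the adaptor of the degradation ligase, had 64.6, 84.7 and 103 CPM in miR139-KD, against 34.6, 59.9 and 65.9 CPM in NTC (log2 fold change 0.63, SE 0.178, edgeR adjusted p = 0.0770; DESeq2 adjusted p = 0.0285). Only 1 miR139-KD library lay within the range of NTC. Dnajc3, the cochaperone P58IPK, had 126, 176 and 197 CPM in miR139-KD, against 115, 129 and 162 CPM in NTC (log2 fold change 0.38, SE 0.121, edgeR adjusted p = 0.120). Edem1, a lectin that sends misfolded glycoproteins to degradation, stood at 0.76 on the log2 scale (SE 0.266, edgeR adjusted p = 0.162). Of the other 15 ER members, with log2 fold changes between -0.32 and 0.49, Manf (0.19), Canx (-0.23) and Herpud1 (-0.31) had an unadjusted p under 0.05. Of the 4 members of ER-associated degradation, Sel1l and Edem1 were positive, and Herpud1 and the ubiquitin ligase Syvn1 (-0.25) were negative. The hub genes overlapped fully. Xbp1 had 71.8, 134 and 178 CPM in miR139-KD, against 78.8, 122 and 187 CPM in NTC (log2 fold change 0.05, 95% interval -0.43 to 0.52). Hspa5 had 321, 377 and 579 CPM in miR139-KD, against 383, 422 and 559 CPM in NTC (log2 fold change -0.13, 95% interval -0.44 to 0.18).

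Of further pathway genes, 1 of 50 ER genes and 1 of 33 ISR genes tested rose and 0 fell, against 1.41% of all genes called higher and 1.31% lower. With 1 gene each, these counts do not set the lists apart from all genes. Kdelr2, a receptor that returns chaperones to the ER, averaged 211 ± 21 CPM in miR139-KD and 152 ± 8.35 CPM in NTC (SD, n = 6 each; log2 fold change 0.47, SE 0.0898, edgeR adjusted p = 0.0122). Nupr1, a stress-induced chromatin protein, averaged 86.8 ± 34.6 CPM in miR139-KD and 32.0 ± 8.29 CPM in NTC (SD, n = 6 each; log2 fold change 1.44, SE 0.244, edgeR adjusted p = 0.00557). Both had groups that did not overlap, as 1.65% of all genes did in this direction. Cell type markers moved in the same comparison. Of megakaryocyte markers, 6 of 9 tested rose, with sums of 1285 to 2917 CPM in miR139-KD, against 119 to 378 CPM in NTC. Of multipotent progenitor markers, 5 of 6 fell, with sums of 288 to 365 CPM in miR139-KD, against 720 to 1304 CPM in NTC. Of B cell markers, 4 of 11 tested fell, with sums of 129 to 990 CPM in miR139-KD, against 1400 to 3017 CPM in NTC. Of HSC markers, 3 of 12 rose, with sums of 1057 to 1242 CPM in miR139-KD, against 598 to 940 CPM in NTC. None of the megakaryocyte, multipotent progenitor, B cell or HSC markers was at 0 in all libraries of either group. Plasmacytoid dendritic cell markers summed to 235 to 317 CPM in miR139-KD, against 327 to 524 CPM in NTC, and Irf8, 1 of 6 tested, fell (log2 fold change -1.53, edgeR adjusted p = 0.0442), while Siglech was at 0 in all miR139-KD libraries. Of T and NK cell markers, Lck, 1 of 2 tested, fell (log2 fold change -3.12, edgeR adjusted p = 0.00226), and Cd3e, Cd3g and Cd8a were at 0 in both groups. The part of these cell types in the 4 falls was not tested. Of cytosolic heat shock genes, 2 of 11 tested fell, Hspa8 (log2 fold change -0.55) and Dnaja1 (-0.54), with sums of 9039 to 10641 CPM in miR139-KD, against 9240 to 13613 CPM in NTC. Plasma cell markers were high in some libraries of both groups, and none was called. Without the 3 libraries over 5000 CPM of plasma cell markers, Pdia3 (log2 fold change -0.59, edgeR adjusted p = 0.0219), Phgdh (-0.74, adjusted p = 0.0356) and Vldlr (-1.81, adjusted p = 0.0467) stayed called and Dnajb11 did not (-0.71, adjusted p = 0.138). In that fit, chosen after the data were seen, Sel1l had a log2 fold change of 0.39 (edgeR adjusted p = 0.324).

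**Figure D4:**
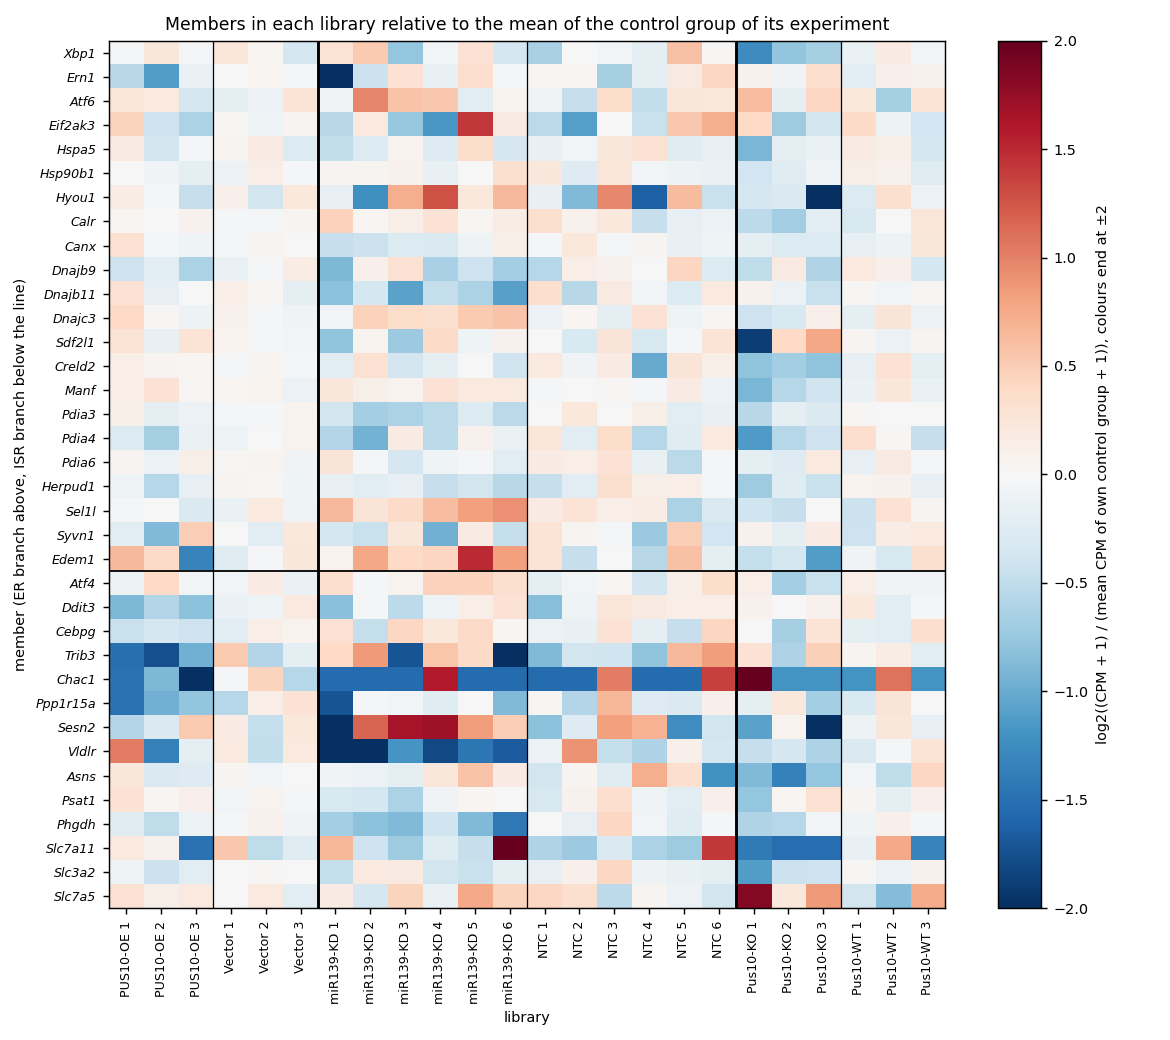
Log2 ratio of the level of each member in each library to the mean of the control group of its own experiment, with 1 CPM added to both, for the 24 libraries (columns) and 36 members (rows, ER branch above the line). Blue marks values below the control mean. Examples are Ddit3, Trib3 and Ppp1r15a in the 3 PUS10-OE libraries and Vldlr, Phgdh and Pdia3 in the 6 miR139-KD libraries. Others are Xbp1, Creld2 and Asns in the 3 Pus10-KO libraries.

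In the libraries labelled Pus10-KO, no member passed the test, and most members of both branches had negative fold changes. Of 34 members tested, 0 were called by edgeR, against 0.0614% of 14657 genes (0.0478% lower and 0.0136% higher). At an unadjusted p under 0.05, 10 members stood lower and 0 higher (29.4% of members lower), against 3.33% of all genes lower and 3.53% higher. The groups did not overlap for 11 members tested, all lower in Pus10-KO, against 6.79% of all genes lower and 6.86% higher. Of the 34, 7 had a log2 fold change above 0, against 49.7% of all genes. The median log2 fold change was -0.27 over the 22 ER members, of which 18 were negative, and -0.23 over the 12 ISR members tested, of which 9 were negative, beside 0.00 over all genes. By DESeq2, 2 members were called, Xbp1 and Asns, among 152 genes, and by limma-voom 0 members.

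Plasma cell, B cell, mast cell and heat shock transcripts separated the same groups in their sums, the B cell and mast cell sums only narrowly. Of 22 plasma cell markers, 17 were tested and 4 were called lower in Pus10-KO by edgeR, Jchain, Iglc2, Iglc3 and Ighm. Igkc, the kappa light chain, averaged 12035 CPM in Pus10-WT. B cell markers summed to 409 to 498 CPM in Pus10-KO and 500 to 890 CPM in Pus10-WT, and Cd79a, a part of the B cell receptor, was called lower and was at 0 in all Pus10-KO libraries (edgeR adjusted p = 0.0238). Cd74 made up most of the B cell sums (mean 387 CPM in Pus10-KO and 502 CPM in Pus10-WT), and Pax5 and Igll1 were at 0 in both groups. Heat shock genes summed to 8084 to 9048 CPM in Pus10-KO and 9955 to 10893 CPM in Pus10-WT, with 0 of 12 tested called. Mast cell and basophil markers summed to 8.13 to 10.7 CPM in Pus10-KO and 0 to 8.09 CPM in Pus10-WT, with 0 of 1 tested called. These sums lie near the floor, with Mcpt8, Prss34, Ms4a2 and Gzmb at 0 in both groups, and do not measure such cells. The part of the B cell, mast cell and heat shock transcripts in the results was not tested. Of the plasma cell markers, Mzb1, Tnfrsf17, Iglc1, Iglc2, Ighg1, Ighg2b, Ighg2c and Ighg3 were at 0 in all Pus10-KO libraries, and Ighg1, Ighg2b and Ighg2c also in all Pus10-WT libraries. Every Pus10-WT library held at least 27092 CPM of plasma cell markers and every Pus10-KO library at most 263 CPM, so for all members that follow, the label and the plasma cell transcripts cannot be told apart.

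Xbp1 (chr11:5520659-5525893, plus strand), which plasma cells need for secretion, had the lowest p of the members. It measured 227, 315 and 341 CPM in Pus10-KO, against 495, 609 and 524 CPM in Pus10-WT. Every Pus10-KO library was below every Pus10-WT library (log2 fold change -0.88, SE 0.167, edgeR adjusted p = 0.350; DESeq2 adjusted p = 3.65e-05). Creld2, a secreted ER stress protein with disulfide isomerase activity, measured 54.9, 59.2 and 54.8 CPM in Pus10-KO, against 86.1, 118 and 85.4 CPM in Pus10-WT, with no overlap (log2 fold change -0.78, SE 0.188, edgeR adjusted p = 0.497). Manf, an ER-resident neurotrophic factor that binds BiP, measured 51.5, 65.2 and 73.9 CPM in Pus10-KO, against 89.1, 115 and 89.3 CPM in Pus10-WT, again with no overlap (log2 fold change -0.62, SE 0.201, edgeR adjusted p = 0.564). Pdia3 measured 510, 652 and 612 CPM in Pus10-KO, against 757, 745 and 745 CPM in Pus10-WT (log2 fold change -0.34, SE 0.107, edgeR adjusted p = 0.559). The remaining ER members with an unadjusted p under 0.05 were Herpud1, Pdia4 and Calr, with log2 fold changes of -0.45, -0.68 and -0.47. Canx, Hyou1 and Edem1 also had groups that did not overlap, at -0.25, -0.85 and -0.62. Other ER genes overlapped between the groups. Hspa5 measured 281, 462 and 481 CPM in Pus10-KO, against 598, 572 and 416 CPM in Pus10-WT (log2 fold change -0.37, 95% interval -0.90 to 0.15). Dnajb11 measured 91.5, 79.0 and 63.1 CPM in Pus10-KO, against 87.6, 82.6 and 88.1 CPM in Pus10-WT (log2 fold change -0.15, SE 0.181). The sensors Ern1, Atf6 and Eif2ak3 had log2 fold changes of 0.13, 0.33 and -0.17, with SE of 0.245 to 0.448, and none passed the test. The other 7 ER members had log2 fold changes between -0.28 and 0.14.

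Of the ISR members, Asns, Slc3a2 and Phgdh had an unadjusted p under 0.05, all lower. Asns measured 83.8, 60.7 and 90.2 CPM in Pus10-KO, against 149, 109 and 209 CPM in Pus10-WT, and the groups did not overlap (log2 fold change -0.99, SE 0.265, edgeR adjusted p = 0.506; DESeq2 adjusted p = 0.0323). Slc3a2 measured 136, 222 and 224 CPM in Pus10-KO, against 303, 275 and 317 CPM in Pus10-WT, also with no overlap (log2 fold change -0.62, SE 0.196, edgeR adjusted p = 0.559). Phgdh measured 333, 339 and 484 CPM in Pus10-KO, against 475, 543 and 496 CPM in Pus10-WT, where 1 Pus10-KO library lay within the range of Pus10-WT (log2 fold change -0.39, SE 0.159, edgeR adjusted p = 0.696). Slc7a5 had a positive value that did not pass the test, at 38.3, 11.8 and 18.9 CPM in Pus10-KO, against 7.53, 5.04 and 17.5 CPM in Pus10-WT (log2 fold change 1.20, SE 0.615, edgeR adjusted p = 0.819). Atf4 measured 114, 64.2 and 75.7 CPM in Pus10-KO, against 114, 98.6 and 98.5 CPM in Pus10-WT (log2 fold change -0.29, 95% interval -0.83 to 0.24). Ddit3 measured 37.9, 35.6 and 37.9 CPM in Pus10-KO, against 41.6, 30.7 and 35.1 CPM in Pus10-WT (log2 fold change 0.05, 95% interval -0.47 to 0.57). Trib3 and Ppp1r15a, the feedback genes with low values in PUS10-OE, had log2 fold changes of 0.12 and -0.17 here, with SE of 0.293 and 0.276. Whether the experiments differ in these genes was not tested. Vldlr measured 19.4, 21.5 and 17.4 CPM in Pus10-KO, against 22.2, 26.4 and 33.1 CPM in Pus10-WT, with no overlap (log2 fold change -0.49, SE 0.285). Sesn2, Psat1 and Cebpg had log2 fold changes of -0.86, -0.07 and -0.08. Chac1 and Slc7a11 were not tested. Chac1 was above 0 in 1 library of each group, and Slc7a11 reached 0.0823 CPM in Pus10-KO and 3.91 CPM in Pus10-WT.

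Of further genes of both pathways, 0 of 51 ER genes and 0 of 33 ISR genes tested were called. The median log2 fold change was -0.17 over the further ER genes, of which 15 were positive, and -0.25 over the further ISR genes, of which 8 were positive. Edem2, a lectin-like factor of glycoprotein degradation, stood at -0.67 on the log2 scale, and Txndc5, a disulfide isomerase that also stands on the plasma cell list, at -0.94 (edgeR adjusted p = 0.537 for each). Eprs, a tRNA synthetase for glutamate and proline, had -0.65 and Shmt2, a mitochondrial enzyme of serine breakdown, -0.93 (edgeR adjusted p = 0.429 and 0.455).

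The knockdown experiment gives libraries with many and with few plasma cell transcripts inside 1 group. NTC replicate 5, with 16494 CPM of plasma cell markers, had 187 CPM of Xbp1, the highest of its group, while the other NTC libraries had 78.8 to 127 CPM. Replicate 5 of miR139-KD, with 15137 CPM, had 151 CPM of Xbp1, within the 71.8 to 178 CPM of the other miR139-KD libraries, and replicate 6, with 5427 CPM, had 97.4 CPM. These are 3 libraries and no test was made. Plasma cell markers in the overexpression experiment were 133 to 181 CPM in PUS10-OE and 160 to 181 CPM in Vector, with Igkc at 0 in both groups, and Xbp1 there was 319 to 484 CPM. Txndc5 (mean 72.9 CPM in PUS10-OE and 72.3 CPM in Vector) and Fkbp11 (52.6 and 39.3 CPM) made up most of these sums. Both genes also stand on the list of further ER genes, so sums this low do not measure plasma cells.

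**Figure D5:**
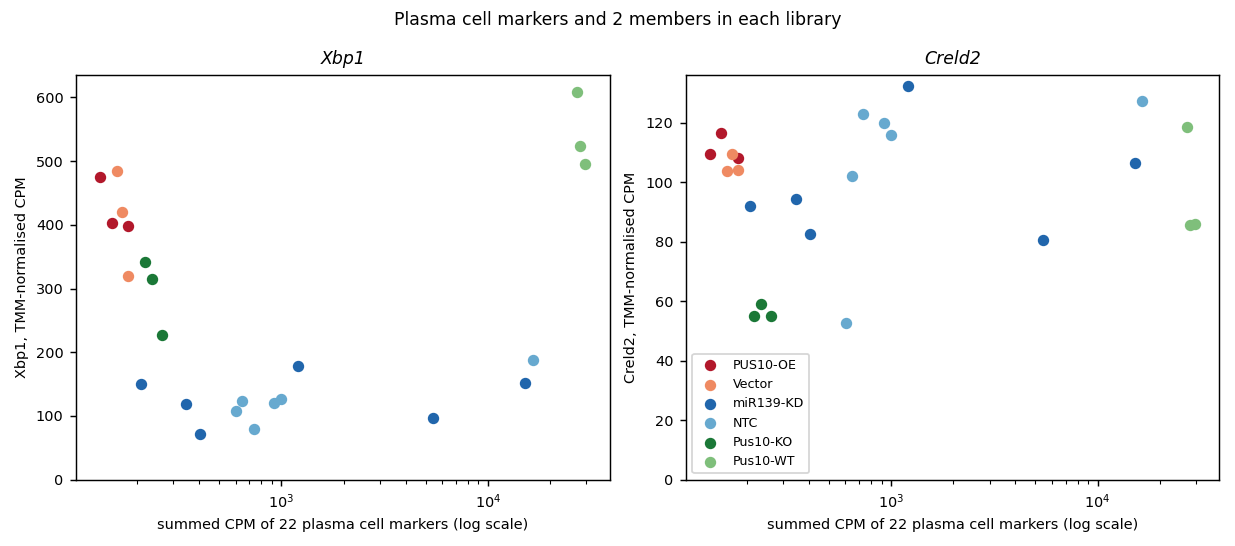
Levels of Xbp1 (left) and Creld2 (right), in TMM-normalised CPM on linear axes from 0, against the summed CPM of 22 plasma cell markers (log axes), with each point a library coloured by group. Pus10-KO libraries, at 217 to 263 CPM of markers, and Pus10-WT libraries, at 27092 to 29710 CPM, do not share any part of the horizontal axis. In Pus10-KO the largest parts of the sum were Txndc5 (mean 106 CPM) and Fkbp11 (mean 40.4 CPM).

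Members with a motif were set beside members without one. Among ER members with a promoter window, the 8 with an ERSE had median log2 fold changes of 0.03 in PUS10-OE, -0.09 in miR139-KD and -0.24 in Pus10-KO, and the 11 without one had -0.11, -0.21 and -0.28. Among ISR members, the 5 with a CARE had a median of -0.37 in PUS10-OE and the 8 without one -0.26. The value of -0.37 is that of Slc7a11, a gene near the floor (SE 1.34). In miR139-KD the 3 tested members with a CARE had 0.10, the value of Trib3 (SE 0.866), and the 8 without one -0.15. In Pus10-KO the values were -0.49 and -0.23. These medians rest on few genes and are given with no test.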

How the data were processed

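Sorted HSCs went through Smart-seq2, per the labels' protocols. This method does not mark strand, so reads of overlapping and antisense genes cannot be told apart. The authors deposited raw read counts per gene. The submitters' processing notes name HISAT2 2.1.0, HTSeq 0.11.2, DESeq2 and the build mm10, with no roles. Which annotation release was counted: not given in the sources used here. GENCODE vM21 supplied symbols for 55094 of the IDs. Library sizes leave out the 5 summary entries; reads in no gene were 3.70% to 12.0% and ambiguous reads 6.53% to 20.1%.

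For every comparison, edgeR 4.0.16 was run on the libraries of its 2 groups (filterByExpr, TMM, robust quasi-likelihood F test, two-sided) in R 4.3.3, with Benjamini-Hochberg adjustment over all genes tested. SE was derived from F. The fit was tested on simulated counts. Ddit3 has 2 IDs; the second was at 0. The lowest chi-square per degree of freedom between replicates was 30.1. Members and lists were chosen with earlier results of these data known. Values per library are given for Xbp1, Hspa5, Atf4, Ddit3, every called member and the 4 members of each branch with the lowest p; the other members are given more briefly. Of further pathway genes, those called, or else the 2 with the lowest p per list, were named. Reads carry no molecular identifiers.

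Alternatives were DESeq2 1.42.0, limma-voom (limma 3.58.1), other scalings and filters, a replicate block, a fit of all 6 groups together, and leaving out each library. Figures used matplotlib 3.10.9.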

Additional observations from a re-analysis of the deposited data

Results flagged for a closer look

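Of 46 sets of 6 values checked (named members and summed marker lists in miR139-KD and NTC), 5 held a library far from the other 5. The rule flags about 1 set in 20 by chance only where values follow a normal distribution. Skewed CPM values, such as summed markers, need not do so, and the number flagged is not set against chance. Phgdh stood at 612 CPM in NTC replicate 3, while the other NTC libraries had 388 to 460 CPM. Vldlr stood at 86.1 CPM in NTC replicate 2, while the other NTC libraries had 29.4 to 49.1 CPM. The summed plasma cell markers were 15137 CPM in miR139-KD replicate 5, while the other miR139-KD libraries had 208 to 5427 CPM. They were 16494 CPM in NTC replicate 5, while the other NTC libraries had 603 to 994 CPM. The summed mast cell and basophil markers were 2041 CPM in miR139-KD replicate 6, while the other miR139-KD libraries had 20.2 to 50.8 CPM. With each library left out in turn, Vldlr kept an edgeR adjusted p of at most 0.0154 and Phgdh of at most 0.0236.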

How the results depend on the processing

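Calls changed with the tool, both over all genes and among the members. By DESeq2, 177 genes, 3 members and 3 ISR members were called for PUS10-OE, 795 genes for miR139-KD, and 152 genes, 2 members, 1 ER member and 1 ISR member for Pus10-KO. By limma-voom, 1 ER member (Pdia3) was called for miR139-KD and 3 genes for Pus10-KO. A filter of 10 CPM gave 9 genes for PUS10-OE. With all 6 groups in 1 fit, 5 genes were called for PUS10-OE, 792 for miR139-KD and 15 for Pus10-KO. Without the 3 libraries rich in plasma cell markers, an alternative chosen after seeing the data, 201 genes and 1 ER member were called for miR139-KD.

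Over all genes, libraries with the same replicate number did not deviate together (r between -0.0196 and 0.0197). This cannot show whether the numbers pair libraries, because a shared animal or day need not shift all genes together. Replicate 5 held the most plasma cell transcripts of its group in both miR139-KD (15137 CPM) and NTC (16494 CPM). With the replicate block, 188 genes, 2 members (Phgdh and Vldlr) and 0 ER members were called for miR139-KD, 2 genes for Pus10-KO, and Vldlr in PUS10-OE was -0.19.

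With 1 library left out, genes called ranged over 196 to 340 for miR139-KD (238 without miR139-KD replicate 1, 229 without miR139-KD replicate 2, 224, 196 and 237 without NTC replicate 2, 3 and 4) and 0 to 10 for Pus10-KO (0 without Pus10-KO replicate 2 or 3, 2 without Pus10-WT replicate 1, 1 without Pus10-WT replicate 2 or 3). ER members called ranged over 1 to 2 for miR139-KD, the ISR median over -0.35 to -0.15 for PUS10-OE and the ER median over -0.35 to -0.26 for Pus10-KO. Small values changed sign: in PUS10-OE, Xbp1 ranged over -0.088 to 0.20, Hspa5 -0.19 to 0.068, Pdia3 -0.15 to 0.0046, Atf4 -0.082 to 0.19, Dnajb11 -0.089 to 0.15 and Vldlr -0.74 to 0.58; in miR139-KD, Xbp1 -0.071 to 0.20; in Pus10-KO, Ddit3 -0.048 to 0.17. By limma-voom, Vldlr in PUS10-OE was -0.10, and with library size only, Dnajb11 there was -0.0011. Dnajb11 in miR139-KD lost its call by limma-voom (adjusted p = 0.0729) and with the block (0.162), and Pdia3 with the block (0.0787). The causes were not tested. At the depth of these libraries, Chac1 and Slc7a11 could not be tested in miR139-KD and Pus10-KO.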
